A study of Mus musculus with 4 samples.

Results

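The genes described here are 43 genes of protein folding in the endoplasmic reticulum (ER) and of the unfolded protein response, chosen by name as ER chaperones, disulfide isomerases, degradation factors, translocon subunits and stress regulators. All 43 were found among the 35275 genes of the deposited table. The study measured gene expression by bulk RNA sequencing of natural killer (NK) cells of the spleen, which kill tumour cells and infected cells without prior priming, sorted as CD3-negative NK1.1-positive cells after enrichment with a kit. There were 4 groups with 1 library each: wild-type control (WT control), wild-type mice given cells of the mouse melanoma line B16-F10 into a vein 20 days before (WT injected), and the same groups from mice labelled Irf4-/- (Irf4-/- control and Irf4-/- injected), which lack the transcription factor IRF4 by that label. The labels name no strain, age, sex, number of mice, Cre driver or treatment of the controls. Values for the libraries are printed in this order throughout.

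Proteins that enter the secretory pathway are threaded into the ER through the SEC61 translocon, folded by chaperones such as BiP and oxidised by protein disulfide isomerases, while those that do not fold are sent back to the cytosol for degradation. When unfolded protein builds up, the membrane sensors ATF6, IRE1 and PERK respond. ATF6 and the XBP1 protein made after IRE1 splices Xbp1 mRNA switch on chaperone and degradation genes, whereas PERK slows translation and raises ATF4, which switches on genes of amino acid supply, redox balance and, through CHOP, cell death. NK cells use this pathway to make granule proteins, surface receptors and cytokines. Gene-level counts do not separate spliced from unspliced Xbp1 mRNA, nor do they show the activity of a sensor protein.

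Library totals ran from 15878159 counts (Irf4-/- control) to 21104881 (WT control). With 1 library per group, a ratio between libraries compares those libraries and not the conditions, and it has no replicate check. The 95% counting intervals printed with ratios cover counting error only, and not the spread between animals or preparations. Without molecular identifiers PCR copies of a molecule are counted as separate reads, so these intervals can be too narrow even for counting error. WT injected stood farthest from the others, with a root mean square log2 difference of 0.359 to 0.399 from each of them, against 0.234 to 0.325 for pairs without it. It also held the largest share of ribosomal protein counts, 5.99% against 4.34% to 4.83%. Irf4 had 93, 57, 188 and 236 counts, so it was higher under the knockout label. The labels do not name the deleted part of the gene, so whole-gene counts do not check the label, and each genotype direction below is that of the libraries labelled Irf4-/-. NK markers such as Ncr1 and Nkg7 were abundant in every library, with a summed level of 15241 to 16954 CPM (counts scaled to a common library size) over 12 genes, and 10 T cell genes summed to 121 to 146 CPM. In bulk RNA, fewer cells of a type and less RNA per cell cannot be told apart.

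The promoters of several of these genes carry the ER stress response element (ERSE), the letters CCAAT and CCACG with any 9 bases between them, which ATF6 binds together with the factor NF-Y. RefSeq promoters on GRCm38.p6, each holding 250 bases before and 50 after the start site, were found for 37 of the 43 genes and searched on both strands. An exact ERSE was present in 9 of these 37 genes, against 0.119% of all 32851 promoters. Those of the 8 genes with enough counts to be measured are printed here, 5′ to 3′ on the gene's strand, because 6 of the 8 are among the genes lower in WT injected than in WT control below. Capitals mark the fixed letters of the element in either orientation, and all windows lie upstream of the RefSeq start site, to which all positions here refer. The GENCODE gene of Hspa5 starts earlier, so its window lies within that gene.
Calr (chr8:84847063-84847105, minus strand): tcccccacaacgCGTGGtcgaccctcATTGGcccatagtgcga
Hspa5 (chr2:34772013-34772055, plus strand): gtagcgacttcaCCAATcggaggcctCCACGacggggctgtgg
Hsp90b1 (chr10:86705521-86705668, minus strand): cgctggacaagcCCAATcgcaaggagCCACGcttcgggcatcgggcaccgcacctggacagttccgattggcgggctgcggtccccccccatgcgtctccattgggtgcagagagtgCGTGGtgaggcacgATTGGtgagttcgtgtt
Pdia6 (chr12:17266479-17266521, plus strand): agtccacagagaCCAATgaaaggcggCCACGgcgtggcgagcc
Creld2 (chr15:88819508-88819550, plus strand): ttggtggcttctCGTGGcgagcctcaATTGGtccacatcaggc
Syvn1 (chr19:6046520-6046562, plus strand): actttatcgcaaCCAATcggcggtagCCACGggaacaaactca
Canx (chr11:50325788-50325830, minus strand): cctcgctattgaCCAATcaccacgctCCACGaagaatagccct
Dnajc3 (chr14:118937815-118937857, plus strand): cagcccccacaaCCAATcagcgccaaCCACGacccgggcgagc
The element ended 143 bases before the start site in Calr, 46 in Hspa5, 79 in Pdia6, 107 in Creld2, 25 in Syvn1, 126 in Canx and 86 in Dnajc3. Hsp90b1 held 2 copies, ending 193 and 88 bases before the start site. The ninth gene, Derl3, had almost no counts.

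A shorter element, ERSE-II (ATTGG and CCACG with any 1 base between them, 0.0365% of all promoters), was present in Herpud1 upstream of the start and in Dnajb11 just downstream of it. The letters of the element bound by ATF4 with C/EBP factors (CARE, TGATGNAA, 3.97% of all promoters) were present in Herpud1, Asns and Chac1 upstream of the start and in Trib3 downstream of it. By the bounds of the GENCODE genes, the match of Asns lies within its gene and that of Trib3 upstream of its gene. The XBP1 site TGACGTGG (0.676% of all promoters) was in none of the 37. The windows of Herpud1, which holds both ERSE-II and CARE, and of Chac1 and Asns are printed to show a degradation gene that differed from the chaperones and ATF4 targets that were near absent. Capitals again mark the fixed letters of each element.
Herpud1 (chr8:94386305-94386399, plus strand): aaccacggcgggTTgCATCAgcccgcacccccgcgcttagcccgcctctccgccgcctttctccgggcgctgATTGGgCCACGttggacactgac
Chac1 (chr2:119351037-119351068, plus strand): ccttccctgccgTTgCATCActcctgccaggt
Asns (chr6:7693213-7693244, minus strand): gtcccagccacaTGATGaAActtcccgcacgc
A match of letters is a description of the promoter and not evidence of binding.

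Across the 4 libraries, the ER chaperones and several of their partners were lower in WT injected than in the other libraries, which lay close together. Calr, Sdf2l1, Hspa5 and Hsp90b1 showed it most, at 0.54 to 0.64 of the WT control level. The translocon, most degradation genes, Atf4 and Ddit3 differed little, and Eif2ak3, Ppp1r15a and Herpud1 were highest in WT injected. A gene was called higher or lower in a pair of libraries when its mean over the 4 libraries was at least 5 CPM, the log2 ratio at least 0.32 away from 0 and the counting interval of the ratio excluded 1, which 39 of the 43 genes could meet. Of these 39, 27 had their lowest level in WT injected, against 34.9% of all 9674 measured genes, and 6 had their highest there, against 33.4%.

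**Figure D1:**
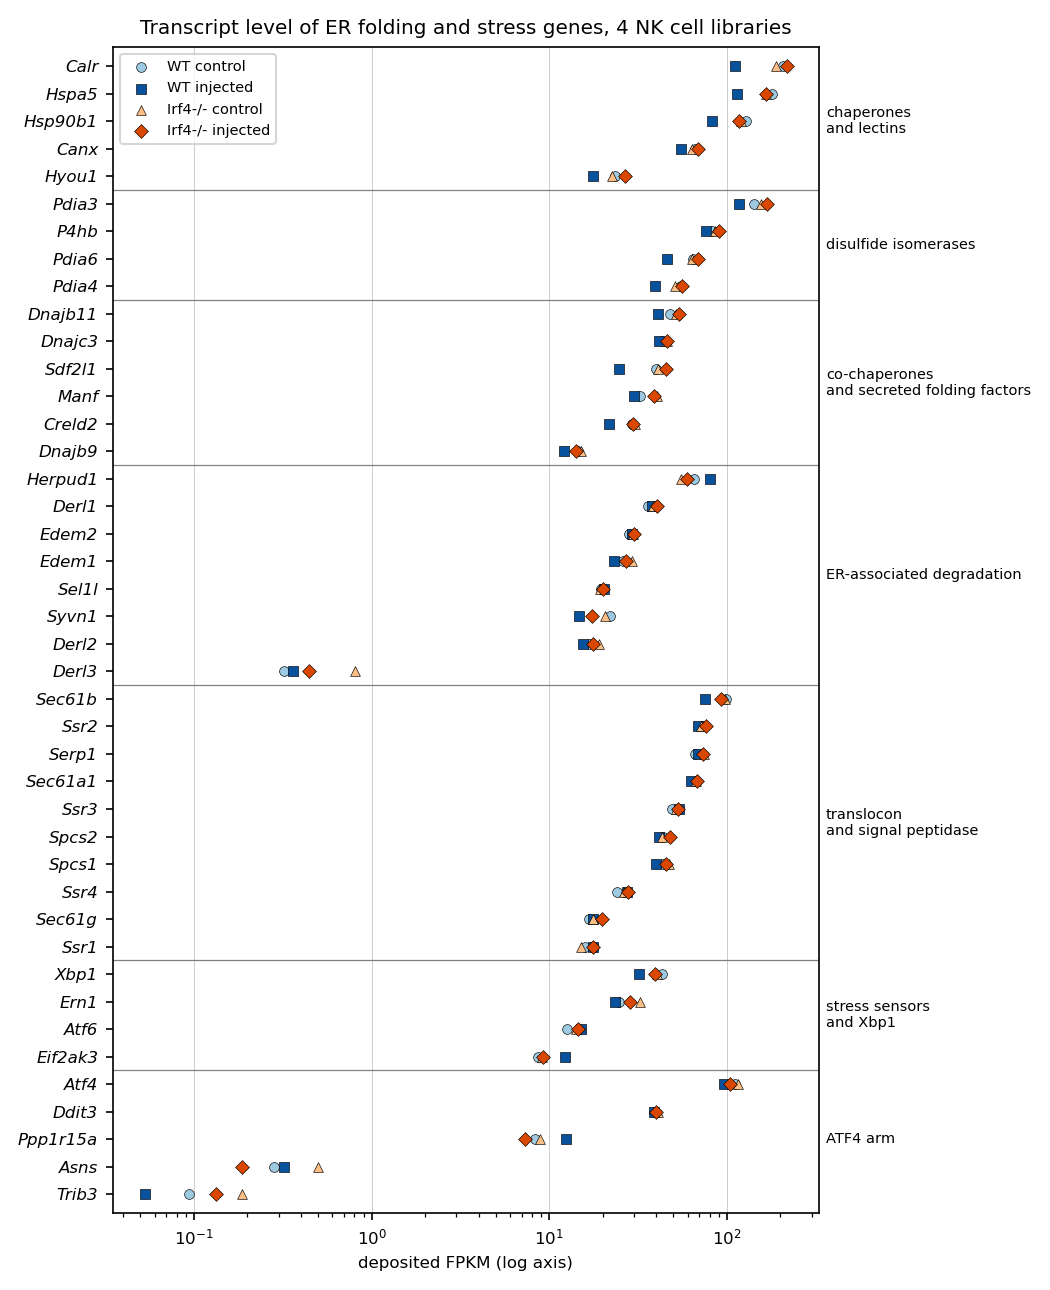
Deposited FPKM (log axis) of 42 of the 43 genes in the 4 libraries, grouped by role and ordered by mean level. Chac1 is left out because it is listed at 0 in 2 libraries. In the upper groups WT injected (dark blue squares) sits to the left of the other libraries, while Herpud1, Eif2ak3 and Ppp1r15a show it on the right.

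Over all 39 measured genes, 11 were called lower (background 13.8%) and 2 higher (background 12.1%) in WT injected than in WT control (the WT injection pair). The 11 were Calr, Sdf2l1, Hspa5, Hsp90b1, Syvn1, Pdia4, Pdia6, Creld2, Xbp1, Hyou1 and Sec61b, and the 2 were Ppp1r15a and Eif2ak3. Between genotypes in injected mice 11 were higher (background 12.2%) and 3 lower (background 10.0%) in the library labelled Irf4-/-, the 3 being Ppp1r15a, Herpud1 and Eif2ak3. Between genotypes in control mice Ern1 was the 1 gene called higher (background 5.14%) and 0 were lower (background 4.10%). In Irf4-/- injected against Irf4-/- control (the Irf4-/- injection pair) 0 were higher (background 6.16%) and 0 lower (background 5.18%), and all 39 log2 ratios lay between -0.27 and 0.26. The share of these genes called in the pairs with WT injected, 28.2% in the main direction, was above the background, and in the other pairs it was below it. At a fold of 1.5, 4 genes were lower (background 4.39%) and 0 higher (background 4.10%) in the WT injection pair. Between genotypes in injected mice 3 were higher (background 4.24%) and 1 lower (background 2.85%) at that fold. At 2-fold 0 were called in any pair, where the shares of all genes were 0.0827% to 1.21%.

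**Figure D2:**
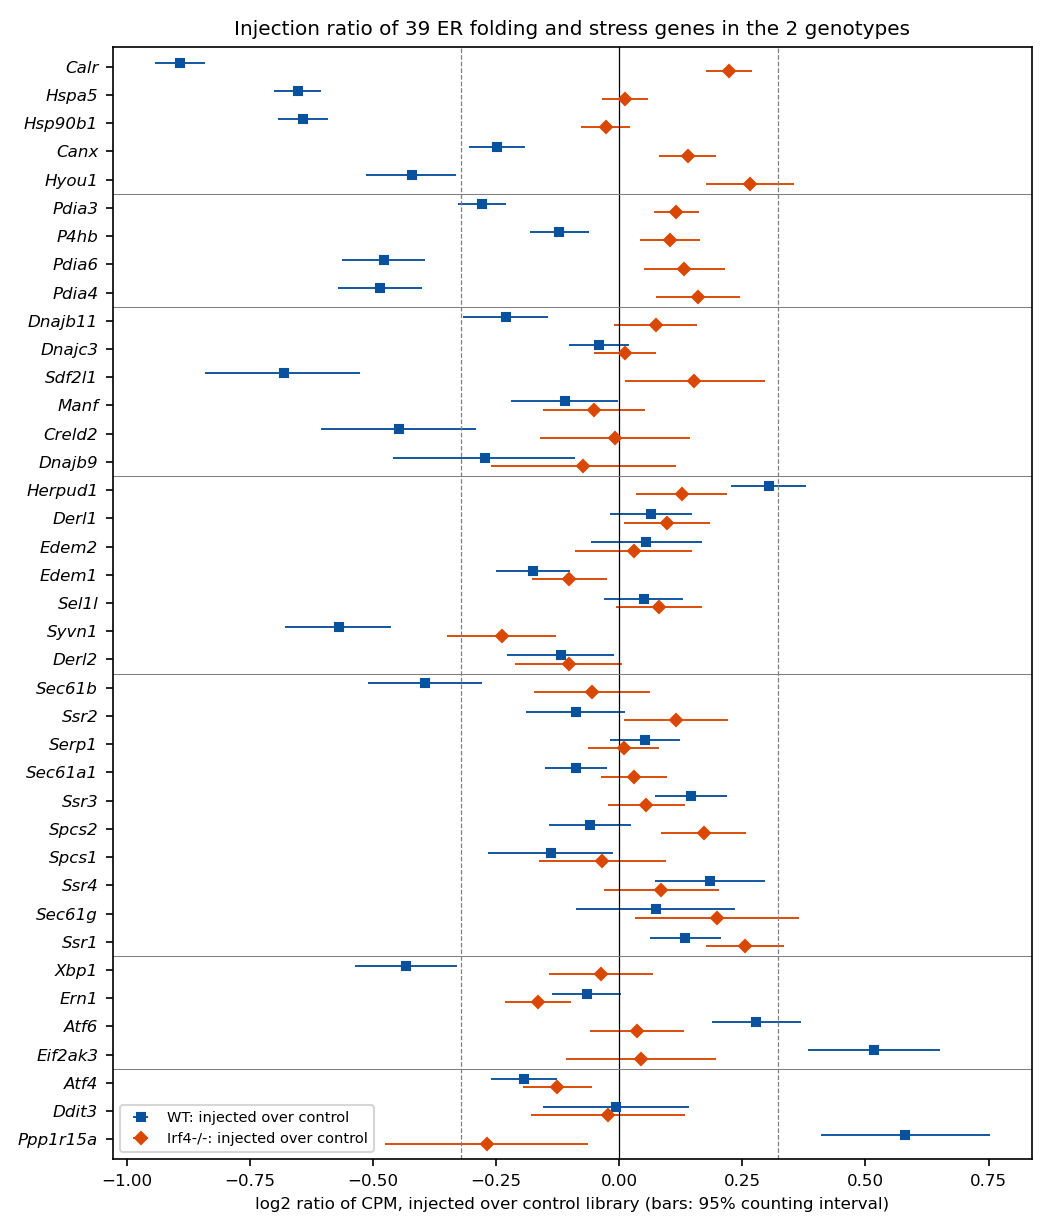
Log2 ratio of injected over control library for the 39 measured genes, in WT mice (blue squares) and mice labelled Irf4-/- (orange diamonds), with 95% counting intervals. Dashed lines mark a log2 ratio of 0.32 either way and grey lines separate the roles. Blue squares of the chaperones and isomerases lie between -0.89 and -0.12, while all orange diamonds lie between -0.27 and 0.26.

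Among the chaperones and lectins, Calr encodes calreticulin, a calcium-binding lectin chaperone of new glycoproteins. It had 451, 243, 407 and 475 CPM. WT injected was low and the other libraries lay between 407 and 475 CPM. The log2 ratio of WT injected over WT control was -0.89 (-0.94 to -0.84) and that of Irf4-/- injected over WT injected was 0.97 (0.91 to 1.02). These ratios share the WT injected library, here and for every gene below, so their opposite signs are not separate observations. Hspa5, the gene of BiP, the main ER HSP70, had 468, 298, 431 and 434 CPM in the same order, with a WT injection ratio of -0.65 (-0.70 to -0.61) and an Irf4-/- injection ratio of 0.01 (-0.04 to 0.06). Hsp90b1, the gene of the ER HSP90 known as GRP94, which folds integrins and Toll-like receptors, had 415, 266, 384 and 377 CPM. Its pattern was that of Hspa5. Hyou1, an HSP70-like exchange factor for BiP, had 116, 86.7, 110 and 132 CPM, and Canx, the membrane-bound lectin calnexin, had 282, 238, 268 and 296 CPM. All 5 genes were lowest in WT injected, as were 34.9% of all measured genes. In the WT injection pair 4 of the 5 (80%) were called lower, against 13.8% of all genes. Canx, at -0.25 (-0.30 to -0.19), was short of the fold. Per length, Calr and Hspa5 were the most abundant of the 43 genes, with mean FPKM of 180.5 and 156, and Hsp90b1 (112) stood below them.

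The disulfide isomerases, which make and reshuffle disulfide bonds, were also lowest in WT injected. Pdia6 had 140, 101, 137 and 149.7 CPM. Pdia4 had 137, 97.7, 125 and 139 CPM, and its WT injection ratio of -0.49 (-0.57 to -0.40) was close to that of Pdia6, -0.48 (-0.56 to -0.39). Pdia3, which works with calreticulin and calnexin on glycoproteins and in the MHC class I loading complex, had 392, 323, 428 and 464 CPM. Its WT injection ratio of -0.28 was not called, but its genotype ratio in injected mice, 0.52 (0.47 to 0.57), was called. P4hb, the classical isomerase PDI, differed least of the group, at 238, 219, 242 and 259 CPM.

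Of the co-chaperones and secreted folding factors, Sdf2l1, a partner of the ER DNAJ proteins, had 44.2, 27.5, 45 and 50.1 CPM. After Calr it had the largest ratios of the 43 genes, with -0.68 (-0.84 to -0.53) in the WT injection pair and 0.86 (0.71 to 1.02) between genotypes in injected mice. Creld2, a secreted ER stress protein with isomerase-like motifs, had 40.3, 29.5, 40.9 and 40.7 CPM. Manf, a secreted factor that stabilises BiP with its clients, was lower in both WT libraries (73.1 and 67.7 CPM) than in both libraries labelled Irf4-/- (90.4 and 87.3), with genotype ratios of 0.31 (0.20 to 0.41) in control and 0.37 (0.26 to 0.47) in injected mice. These genotype ratios come from separate libraries. Dnajb11, a soluble BiP partner, had 122, 104, 129 and 136 CPM. Dnajb9 (22.6 to 27.9 CPM), which restrains IRE1, and Dnajc3 (217 to 237 CPM), an inhibitor of PERK that also delivers clients to BiP, were lowest in WT injected by small margins, and neither was called in any pair.

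The genes of ER-associated degradation did not share a pattern. Syvn1, the ubiquitin ligase HRD1, had 89.4, 60.2, 83.4 and 70.6 CPM. It was lower after injection in both genotypes, at -0.57 (-0.68 to -0.46) in WT and -0.24 (-0.35 to -0.13) in Irf4-/-. Sel1l, the adaptor that holds HRD1 in its complex, had 124, 128, 120 and 127 CPM and its 4 log2 ratios lay between -0.04 and 0.08. Herpud1, a membrane protein that recruits substrates to HRD1, had 128, 158, 106 and 116 CPM. It was thus highest where the chaperones were lowest, and its genotype ratio in injected mice was -0.44 (-0.52 to -0.36). The mannosidase-like lectins Edem1 and Edem2 and the membrane channel proteins Derl1 and Derl2 lay between -0.17 and 0.21 in every pair. Derl3, a derlin of professional secretory cells, had 9, 9, 17 and 11 counts and was not measured.

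Most translocon and signal peptidase genes differed little. Their median log2 ratio was -0.004 in the WT injection pair and 0.12 between genotypes in injected mice. In the first pair 1 of 10 was called lower (10%, against 13.8% of all genes) and 0 higher (against 12.1%). In the second 0 were called, against 12.2% higher and 10.0% lower of all genes. The exception was Sec61b, the beta subunit of the channel, with 72.1, 54.9, 69.4 and 66.8 CPM. The channel subunit Sec61a1 had 211, 198, 209 and 214 CPM. Ssr1, a subunit of the translocon-associated TRAP complex, had 149, 164, 138 and 165 CPM, higher in both injected libraries than in their controls. Sec61g, the TRAP subunits Ssr2, Ssr3 and Ssr4, the signal peptidase subunits Spcs1 and Spcs2 and the stress-associated translocon protein Serp1 had WT injection ratios from -0.14 to 0.18.

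The sensors parted from each other. Eif2ak3, the gene of PERK, had 38.9, 55.7, 40.6 and 41.9 CPM, so that WT injected alone was high, with a WT injection ratio of 0.52 (0.38 to 0.65). Atf6 had 91.0, 110, 102 and 105 CPM and a WT injection ratio of 0.28 (0.19 to 0.37). Ern1, the gene of IRE1, followed the genotype label instead. It had 171 and 163 CPM in the WT libraries and 223 and 199 in those labelled Irf4-/-, with genotype ratios of 0.38 (0.31 to 0.45) in control mice and 0.28 (0.21 to 0.35) in injected mice. Xbp1, whose mRNA IRE1 splices and whose gene is a target of ATF6, had 91.7, 67.9, 85.7 and 83.5 CPM and a WT injection ratio of -0.43 (-0.54 to -0.33), with the chaperones and not with the sensors.

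The ATF4 arm holds 6 of the 43 genes, of which 3 were measured. Atf4 had 191, 167, 197 and 181 CPM, and was lower after injection by a little in both genotypes, at -0.19 (-0.26 to -0.13) and -0.13 (-0.20 to -0.06). Ddit3, the gene of the death-linked factor CHOP, had 37.7, 37.6, 39.3 and 38.7 CPM, and no pair had a counting interval that excluded 0. Ppp1r15a, the gene of GADD34, which brings the phosphatase that undoes the PERK signal, had 23.5, 35.1, 24.8 and 20.6 CPM. WT injected was the high library, with 0.58 (0.41 to 0.75) over WT control, and the genotype ratio in injected mice was -0.77 (-0.96 to -0.59). The other ATF4 targets on the list were close to absent. Asns, the gene of asparagine synthetase, had 12, 12, 16 and 7 counts, the pseudokinase gene Trib3 had 4, 2, 6 and 5, and Chac1, the gene of a glutathione-degrading enzyme, had 0, 1, 0 and 1. At these depths 3 counts correspond to 0.143 to 0.187 CPM, so differences in Trib3 and Chac1 were not detectable. Atf4 mRNA was thus present at a mean FPKM of 107 beside Asns at 0.322 and Trib3 at 0.116, which compares levels per length and not responses.

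To compare the arms, 21 genes known as targets of ATF6 or XBP1 were set beside the 6 genes of the ATF4 arm. In the WT injection pair the ATF6/XBP1 arm had a median log2 ratio of -0.35 over 20 measured genes, with 10 called lower (50%, against 13.8% of all genes) and 0 higher (against 12.1%). The ATF4 arm had a median of -0.01 over 3 genes, with 1 called higher, and all measured genes had a median of -0.02. Between genotypes in injected mice the medians were 0.33 and 0.04, with 10 higher (50%, against 12.2% of all genes) and 1 lower (5%, against 10.0%) in the ATF6/XBP1 arm and 1 lower in the ATF4 arm. Without the WT injected library the arms did not separate in that way. In the Irf4-/- injection pair the medians were 0.01 for the ATF6/XBP1 arm and -0.13 for the ATF4 arm, and between genotypes in control mice -0.01 and 0.06, with 0 genes of either arm called in either pair. The ATF4 medians rest on 3 genes, Atf4, Ddit3 and Ppp1r15a, which did not share a direction in the pairs with WT injected. A wider ATF6/XBP1 arm also took in the translocon and signal peptidase genes, calnexin, all isomerases and Edem2. With it the difference between arms in the WT injection pair went from -0.34 to -0.13, and between genotypes in injected mice from 0.29 to 0.19.

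**Figure D3:**
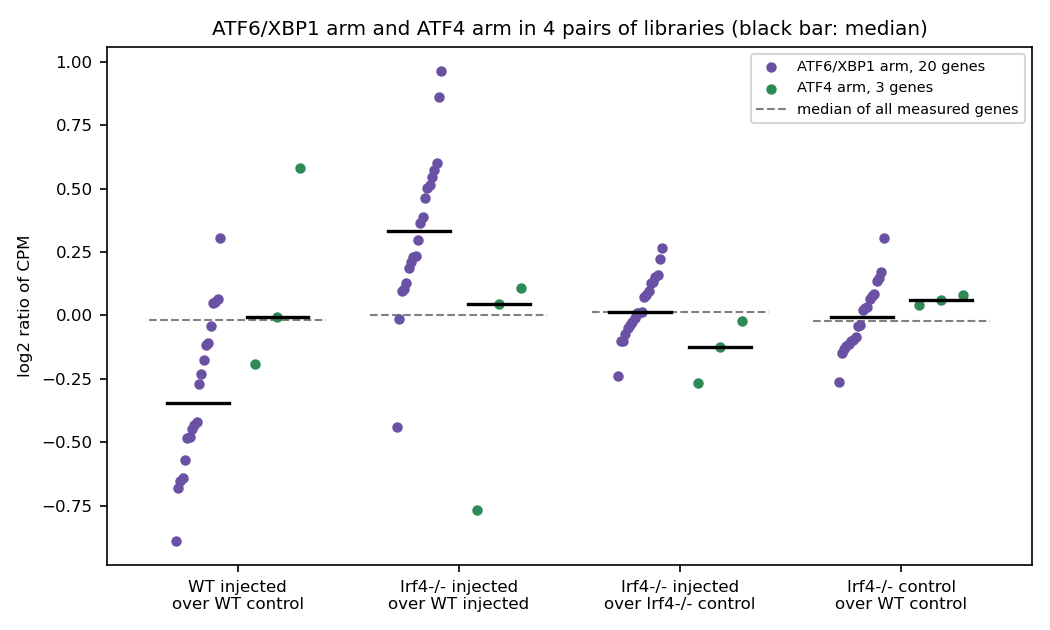
Log2 ratio of CPM of each measured gene of the ATF6/XBP1 arm (purple, 20 genes) and the ATF4 arm (green, 3 genes) in 4 pairs of libraries. Black bars are arm medians and the dashed line is the median of all 9674 measured genes. The purple median is -0.35 and 0.33 in the pairs that contain WT injected, and between -0.01 and 0.01 in the others.

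The only test the design allows is the additive model, with genotype and injection as terms over all 4 libraries and the departure from additivity as its error. By edgeR's quasi-likelihood test with Benjamini-Hochberg adjustment over 11998 genes, 0 of the 39 genes rose or fell with genotype (background 1.22% rose, 0.258% fell) and 0 with injection (background 0.333% and 0.392%). At an unadjusted p under 0.05 by the same edgeR test there were 6 of 39 for genotype (background 10.4%) and 2 for injection (background 14.2%). DESeq2 and limma-voom also passed 0 after adjustment. The smallest adjusted p for genotype was that of Manf, 0.153, with a log2 effect of 0.34 (SE 0.0937), followed in the same edgeR test by Herpud1 with 0.178 and -0.34 (SE 0.0990) and Ern1 with 0.194 and 0.34 (SE 0.0998). For injection Syvn1 had an adjusted p of 0.118 by edgeR's test and an effect of -0.40 (SE 0.105). Each of these 4 genes had the same sign in both pairs that carry the effect. The model counts a difference between the genotypes' responses as error, and Calr had a genotype effect of 0.41 with an SE of 0.202 and an adjusted p of 0.541 by edgeR's test. The genotype ratios of Calr had opposite signs, -0.15 in control mice and 0.97 in injected mice. With no filter on low counts edgeR's adjusted p was 0.0204 for Calr and 0.0461 for Sdf2l1 for genotype, and 0.0193 for Syvn1 for injection. Of all 21484 genes tested without that filter, 319 rose and 163 fell with genotype, and 305 rose and 299 fell with injection.

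The difference between the injection ratios of the 2 genotypes can be described but not tested. It uses all 4 libraries, each once. It was at least 0.32 with a counting interval excluding 0 for 13 genes in the direction of a higher ratio in mice labelled Irf4-/- (33.3% of 39, background 13.0%) and for 2 genes, Ppp1r15a and Eif2ak3, in the other (background 9.15%). The largest was that of Calr, 1.11 (1.04 to 1.18), then Sdf2l1 with 0.83, Hyou1 with 0.69, Hspa5 with 0.66, Pdia4 with 0.65, Hsp90b1 with 0.61 and Pdia6 with 0.61. For 9 genes the counting intervals of the injection ratios lay on opposite sides of 0 (23.1% of 39, background 6.67%). Ppp1r15a had -0.85 (-1.11 to -0.58) and Eif2ak3 -0.47 (-0.67 to -0.27). The median was 0.32 in the ATF6/XBP1 arm, -0.02 in the ATF4 arm and 0.03 over all measured genes.

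Genes with the ERSE printed above were among the lowest in WT injected. All 8 measured ones had a WT injection ratio below 0, from -0.89 (Calr) to -0.04 (Dnajc3), with a median of -0.52 and 6 called lower. The 25 measured genes with a promoter entry and no exact ERSE had a median of -0.07, with 4 called lower (16%) and 2 higher (8%). Of all 7650 measured genes with a promoter entry 13.6% were called lower and 11.2% higher, so the share called among the 25 was near that of all genes. In the Irf4-/- injection pair the medians were 0.01 and 0.04. Canx and Dnajc3 carry the element and were not called, whereas Sdf2l1 and Pdia4 have no exact match in this window and were called lower. Except for Canx, the measured genes with an ERSE all belong to the ATF6/XBP1 arm. Those without one include the ATF4 arm, sensors and translocon genes, so the 2 classes also differ in role and the element's part cannot be told apart from it. Outside the list, 28 other genes had an exact ERSE, of which 5 were measured. Their WT injection ratios were -0.40 for Adcy3, -0.27 for Xlr3b, -0.14 for Hnrnpa3, -0.01 for Alg12 and 0.13 for Pan2, with 1 called lower, so most of these genes were not called. Herpud1, with ERSE-II and CARE, had 0.30, and Dnajb11, with ERSE-II after the start site, -0.23.

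**Figure D4:**
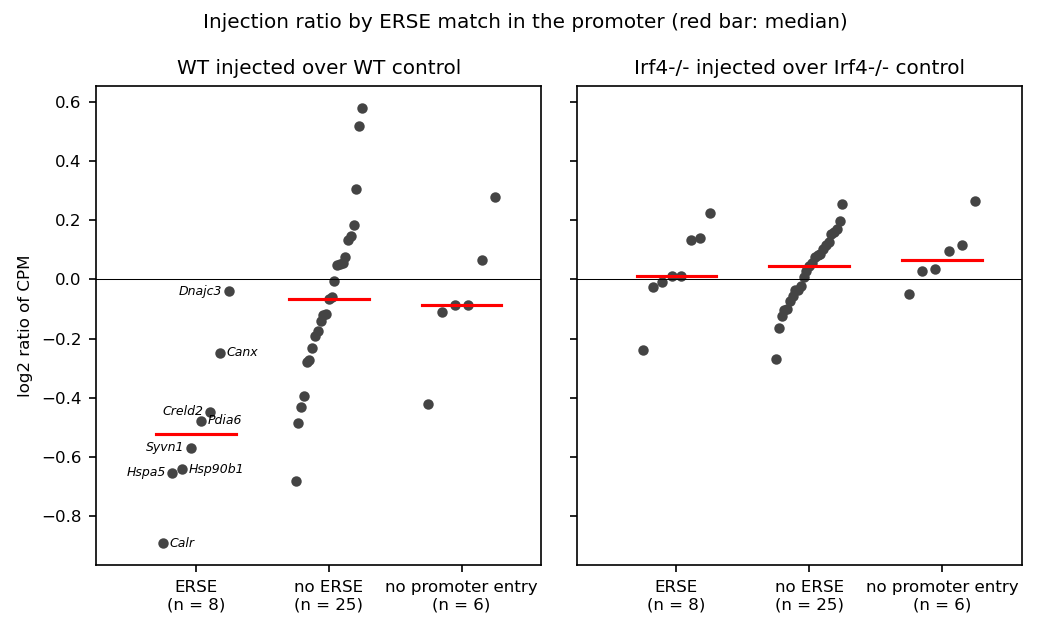
Injection ratio (log2 of CPM) of the measured genes, by exact ERSE match in the RefSeq promoter, in WT mice (left) and mice labelled Irf4-/- (right). Points are genes, red bars are medians, and 6 genes without a promoter entry stand apart. In WT the 8 genes with an ERSE lie between -0.89 and -0.04, and in mice labelled Irf4-/- between -0.24 and 0.22.

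In wider lists of the same pathway the shares called in the WT injection pair are to be read against 13.8% lower and 12.1% higher among all measured genes, and most lists lay near or below these. The genes named from them were the called ones with the largest ratios. Of 23 measured folding and quality control genes outside the 43, 1 was called lower and 0 higher in the WT injection pair, with a median of -0.02. The 1 was Fkbp2, a prolyl isomerase, at -0.59. Of 26 translocation and N-glycosylation genes 5 were lower (19.2%) and 0 higher, with a median of -0.15. They included Dpagt1, the enzyme that starts the lipid-linked glycan, at -0.66 and Ost4, an oligosaccharyltransferase subunit, at -0.53. Between genotypes in injected mice 7 of these 26 were higher (26.9%, against 12.2% of all genes) and 1 lower (3.85%, against 10.0%). That share was close to the 28.2% higher among the 39 genes. Among the 7, Gfpt1, the first enzyme of the hexosamine pathway, was at 0.54 and Dpagt1 at 0.54. Of 17 other degradation genes 1 was lower (5.88%) and 2 were higher (11.8%). The higher ones were the ubiquitin-conjugating enzyme Ube2g2, at 0.73, and the lectin Erlec1, at 0.57. Of 24 ER exit and vesicle coat genes 0 were lower and 1, Preb, was higher, at 0.43. Of 17 other stress sensing genes 1 was lower and 1 higher, namely Eif2ak2 at -0.34 and the ER-bound transcription factor gene Creb3l2 at 0.57.

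Among 26 measured ATF4 targets outside the 43 genes, 7 were lower (26.9%) and 3 higher (11.5%) in the WT injection pair, with a median of -0.20. Mthfd2, a mitochondrial folate enzyme, was at -1.02 and Atf5, a factor related to ATF4, at -0.91, while Cebpb, a partner of ATF4, was at 0.65. Between genotypes in injected mice 4 were higher (15.4%, against 12.2% of all genes) and 3 lower (11.5%, against 10.0%), which was near the background. Mthfd2, at 0.93, was among the higher ones and Cebpb, at -0.84, among the lower ones. This wider list thus had its median below that of all genes (-0.02), as the ATF6/XBP1 arm did, while the 3 measured ATF4 genes of the 43 did not. By the additive edgeR test 1 of 28 tested genes of this list passed, Stc2, which rose with genotype; of the other pathway lists 0 genes passed.

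Other transcripts also differed between the libraries. Counts of called genes here are to be read against the shares of all measured genes. These were 12.2% higher and 10.0% lower between genotypes in injected mice and 12.1% and 13.8% in the WT injection pair. In the Irf4-/- injection pair they were 6.16% and 5.18%. Of the 12 NK markers 6 (50%) were called higher and 1 (8.33%) lower between genotypes in injected mice. Their median log2 ratio there was 0.21, beside 0.20 for the 39 ER genes. In the WT injection pair 1 (8.33%) was higher and 1 (8.33%) lower, with a median of -0.12 beside -0.12. The NK markers summed to 15333, 15241, 16443 and 16954 CPM. Of 11 measured inducible heat shock genes of the cytosol, 10 (90.9%) were called lower in the WT injection pair and 9 (81.8%) in the Irf4-/- injection pair. By the additive edgeR test 8 of 12 fell with injection, against 0.392% of all genes tested. Their summed level was 5773, 2619, 4771 and 3095 CPM, low in both injected libraries and lowest in WT injected. The ATF6/XBP1 arm, at 3194, 2466, 3109 and 3226 CPM, was low in WT injected only. Between genotypes in injected mice 3 of the 11 heat shock genes (27.3%) were called higher and 0 lower, beside 28.2% higher of the 39 ER genes. In control mice 0 were higher and 5 (45.5%) lower, against 5.14% and 4.10% of all genes. Hspa1b fell with genotype in the additive edgeR test. Plasma cells are rich in ER chaperones. Of 11 plasma cell markers 2 were measured, Prdm1 and Irf4, which NK cells also express, and the list summed to 104, 141, 128 and 103 CPM, highest in WT injected. Prdm1 made up most of it, with 88.2, 130, 104 and 86.4 CPM. By the additive edgeR test Irf4 rose and Ighg2b, with 22, 37, 1 and 0 counts, fell with genotype. Jchain had 2.66, 2.69, 3.56 and 0.107 CPM, and Tnfrsf17 was at 0 in all libraries. The 11 matched B cell markers summed to 276, 230, 275 and 273 CPM. Of the 6 measured, 5 (83.3%) were called lower in the WT injection pair and 3 (50%) in the Irf4-/- injection pair. Between genotypes in injected mice 4 of the 6 B cell markers (66.7%) were higher and 1 (16.7%) lower. The 14 monocyte and macrophage markers summed to 151, 216, 196 and 235 CPM. Of the 7 measured, 5 (71.4%) were called higher in the WT injection pair and 4 (57.1%) in the Irf4-/- injection pair, with 1 lower in each. Between genotypes in injected mice 2 of the 7 (28.6%) were higher and 3 (42.9%) lower. Neutrophil markers summed to 0.752 to 1.45 CPM, with Ly6g, Retnlg and Mmp8 at 0. The 10 dendritic cell markers, of which 4 were measured, summed to 1448, 1191, 1829 and 1905 CPM. Between genotypes in injected mice 3 of the 4 (75%) were called higher and 1 (25%) lower. In the WT injection pair 1 (25%) was higher and 1 (25%) lower. Whether these transcripts came from dendritic cells was not tested. Erythroid markers summed to 38.5, 19.1, 46.0 and 109 CPM. All 3 measured (100%) were called higher between genotypes in injected mice and lower in the WT injection pair. In the Irf4-/- injection pair all 3 were called higher. The part of the heat shock genes, the NK, plasma cell, B cell, macrophage, dendritic and erythroid markers and the library that stood apart in these results was not tested.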

How the data were processed

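Gene expression was measured in 4 libraries, 1 per group, so p-values reflect only the departure of these libraries from additivity, which may be technical. The authors deposited raw counts for each gene and FPKM values. Each of the 72455 deposited FPKM values with a count gave back a gene length that was whole to within 0.01 bp when set against its count and library total. Per the submitters' processing notes TopHat and edgeR were used with mm10, with no versions; the sources used here name no counting tool, annotation or strand setting, so reads of overlapping genes cannot be assigned with certainty. Of 35275 gene identifiers 34490 matched a GENCODE symbol.

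Counts were scaled by TMM (edgeR 4.0.16, R 4.3.3). Log2 ratios used a prior count of 2 and exact (Clopper-Pearson) 95% counting intervals; the interval of a difference of ratios is a normal approximation. The additive model (glmQLFit, glmQLFTest, two-sided) kept genes reaching 1 CPM in 2 or more libraries and had 1 residual degree of freedom (9.62 more came from moderation across genes) and a biological coefficient of variation of 9.98%. SE is the log2 effect over the square root of F. Steps were tested on simulated data. Alternatives were other scalings, filters, prior counts and folds, FPKM with a pseudocount of 0.1, DESeq2 1.42.0 and limma-voom (limma 3.58.1).

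The genes, lists, arms and rules were chosen with earlier results of these data known. Values in all libraries are given for the sensors, Xbp1, Atf4, Ddit3 and the 2 genes of each role with the largest ratio, and other genes shown with values were chosen after their values were seen. Of the wider lists up to 2 called genes per pair are named. Of 287 list genes 2 did not match, Ighd and Ahsp, and 2 matched by synonym.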

Additional observations from a re-analysis of the deposited data

Results flagged for a closer look

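For 9 of the 39 measured genes the injection ratio lay on opposite sides of 0 in the 2 genotypes, with counting intervals that excluded 0 on both sides, against 6.67% of all measured genes. The difference was not tested, since each genotype has 1 library per condition. On the log2 scale Calr stood at -0.89 in WT and 0.22 in Irf4-/- mice, Sdf2l1 at -0.68 and 0.15, Pdia4 at -0.49 and 0.16, Pdia6 at -0.48 and 0.13 and Hyou1 at -0.42 and 0.26. Pdia3 stood at -0.28 and 0.12, Canx at -0.25 and 0.14 and P4hb at -0.12 and 0.10. Ppp1r15a went the other way, at 0.58 in WT and -0.27 in Irf4-/- mice. In 8 of the 9 the WT ratio was the one below 0.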

How the results depend on the processing

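Under median-of-ratios, total-count and upper-quartile scaling, a prior count of 0.5, a minimum of 1 CPM and FPKM values, the counts of genes called in each pair stayed within 1.5 times the main counts. The exception was the control genotype pair, where 2 in place of 1 gene were higher under total-count scaling, upper-quartile scaling and FPKM. Raising the fold to 1.5 left 4 lower and 0 higher in the WT injection pair (4.39% and 4.10% of all genes), 3 higher and 1 lower between genotypes in injected mice (4.24% and 2.85%) and 0 higher in control mice (1.91%), and at 2-fold there were 0 in each. The wider ATF6/XBP1 arm moved the difference between arms to 0.19 between genotypes in injected mice and to -0.13 in the WT injection pair. With no filter on low counts, 2 of these genes rose with genotype and 1 fell with injection, in place of 0; the other 8 alternatives of the additive test gave 0, namely 3 scalings, a 5 CPM filter, DESeq2, limma-voom, an adjusted p under 0.1 and the other term left out. Over all genes the additive test called 146 rising and 31 falling with genotype, against 319 and 163 with no filter, 197 and 53 with total-count scaling, 119 and 15 by DESeq2 and 3 and 2 with the other term left out. For injection it called 40 and 47, against 305 and 299 with no filter, 120 and 147 with total-count and 113 and 100 with upper-quartile scaling, 75 and 86 with the 5 CPM filter, 114 and 121 at an adjusted p under 0.1 and 0 and 0 with the other term left out. The cause was not tested. Counts of the difference of injection ratios, whose scaling alternatives were chosen after seeing the data, ran from 11 to 13 higher and stayed at 2 lower. Leaving out WT injected leaves no residual degree of freedom, so it gives the ratios of the other pairs and no test. No paired analysis was possible because each group has 1 library and the labels carry no replicate numbers.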
